A study of Mus musculus with 6 samples.

Results

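Mesenchymal marker genes are genes whose products are abundant in fibroblast-like cells and scarce in epithelial sheets, and they are read as signs of epithelial-mesenchymal transition. The 10 described here are Vim, Fn1, S100a4, Acta2, Tagln, Sparc, Tnc, Postn, Thy1 and Axl, a named set taken from general knowledge. Every probe set annotated to one of these symbols alone was used, which gave 19 probe sets for 10 genes out of 45037 probe sets and 18193 genes. RNA came from 344SQ lung adenocarcinoma cells, a mass population and not a clone, grown from a subcutaneous site of a tumor-bearing mouse with the genotype p53R172H∆g/+ K-rasLA1/+, and all cells in the study share these alleles. The control vector group (3 cultures: control A, B and C) carried a control lentivirus, and the miR-200 group (3 cultures: miR-200 A, B and C) carried a lentivirus with the miR-200b-200a-429 cluster. Both were GFP-positive pools kept in puromycin, and each culture gave 1 Affymetrix array. The promoter of the vector and the age of the mouse are not given in the sources used here. Nothing in the labels says that cultures of a group came from separate transductions, so each p-value reflects the scatter among these particular cultures, which may be technical, and a difference between the pools that predates the microRNAs cannot be told apart from theirs.

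The miR-200 family holds epithelial cells in their state mainly by lowering Zeb1 and Zeb2, transcription factors that silence epithelial genes. When the family is lost, cells can take up a spindle shape, swap cadherins and lay down fibronectin and other matrix proteins. The markers therefore fall into roles: cytoskeletal proteins (vimentin, smooth muscle actin, transgelin), matrix proteins (fibronectin, SPARC, tenascin-C, periostin), a calcium-binding protein (S100A4), and surface proteins (the receptor tyrosine kinase AXL and the glycoprotein THY1). The comparison asks whether they differ when the microRNAs are forced on in this metastatic line.

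The microRNAs that set the groups apart are shown first. These are the mature 3p strands from RefSeq (GRCm38.p6), all on the minus strand of chromosome 4, with the seed (bases 2 to 8) in capitals.
mmu-miR-200b-3p (chr4:156055685-156055706): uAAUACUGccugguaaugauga
mmu-miR-429-3p (chr4:156053916-156053937): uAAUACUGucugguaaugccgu
mmu-miR-200a-3p (chr4:156054911-156054932): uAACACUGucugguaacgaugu
The first and second share the seed AAUACUG, and miR-200a has AACACUG. Their levels were not analysed here.

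Values are log2 signals after quantile normalization, and differences are miR-200 minus control on the log2 scale with the standard error (SE) and 95% confidence interval of a limma fit across the whole table. None of the 19 probe sets passed the threshold, an adjusted p of 0.05, in limma (0 higher, 0 lower). Over the whole array 335 of 45037 probe sets passed (0.744%). The lowest adjusted p was 0.0615, for Sparc. Before adjustment, 7 had a limma p under 0.05 (5 higher and 2 lower), which is 36.8% of the 19 against 14.1% of the array. These 7 belong to 4 genes, Sparc, Tnc, Acta2 and Fn1, and probe sets of a gene share its transcript. The 3 miR-200 values lay wholly on one side of the 3 control values for 6 of the 19 (4 higher, 2 lower; 31.6%), against 21.3% of the array. The median difference over the 10 genes, each by its brightest probe set, was 0.13, and 0.0014 over all 18193 genes.

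**Figure D1:**
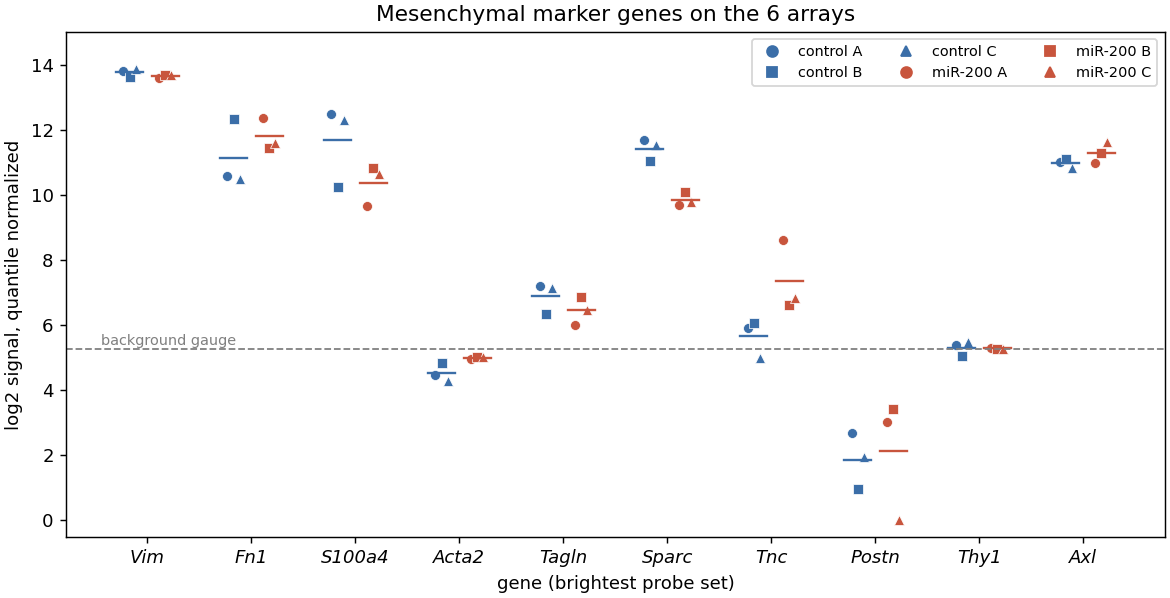
Log2 signal of the brightest probe set of each of the 10 genes (x axis) on each of the 6 arrays (symbols, blue for control and red for miR-200), with group means as bars and the background gauge of 5.28 as a dashed line. Sparc is the gene above the gauge whose groups are farthest apart relative to their spread, while Vim and Axl overlap and Acta2 and Postn lie under the gauge on all arrays.

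The files give no detection calls, so background was gauged by the top reading of the spike-in probe sets for bacterial trp, 5.28. This gauge assumes that no trp transcript was added to the RNA, which was not tested. By the brightest probe set, 6 of the 10 genes were above it on all 6 arrays: Vim, Fn1, S100a4, Tagln, Sparc and Axl. Tnc was above it on 5 arrays, Thy1 on 3, and Acta2 and Postn on 0. Of 8 epithelial markers all had a mean over the 6 arrays above the gauge (summed linear signal 55800 to 58000 in the controls and 55400 to 59000 in the miR-200 cultures), and 2 rose. These were the tight junction genes Cldn4, from under the gauge in all controls (difference 5.72 ± 0.55, limma adjusted p = 0.0217), and Cldn7 (4.24 ± 0.36, adjusted p = 0.0162). Of the others, Epcam was higher (0.42 ± 0.16, adjusted p = 0.344) and Krt19 lower (-0.39 ± 0.14, adjusted p = 0.315) before adjustment, while Cdh1, which encodes E-cadherin, read 13.14 to 13.46 and the keratin gene Krt8 13.36 to 13.62 over both groups. Of 8 fibroblast markers, 3 had a mean above the gauge, and their summed linear signal was 392 to 428 in the control cultures and 413 to 456 in the miR-200 cultures. The 3 above it were Col1a2 (7.50 to 7.84 over the 6 arrays), Col1a1 (5.69 to 6.06) and Lum (5.46 to 6.03). Of those under it, the fibroblast collagen gene Col3a1 read 3.90 to 4.89 and the decorin gene Dcn 0.88 to 4.23. Of 7 smooth muscle and pericyte markers 1 had a mean above the gauge, and Cnn1 was listed at 0 on all arrays (summed signal 189 to 203 and 232 to 260). Of 6 endothelial markers 2 were above it (233 to 260 and 250 to 296), and of 6 leukocyte markers measured 4 were (1290 to 1640 and 1530 to 2090). In limma 0 genes of the fibroblast, smooth muscle, endothelial and leukocyte lists passed the threshold, and 2 had an unadjusted p under 0.05. Over all 18193 genes, 0.945% passed and 14.8% had such an unadjusted p. Both of the 2 were higher in the miR-200 cultures: the leukocyte gene Csf1r (0.45 ± 0.14, adjusted p = 0.264) and the pericyte gene Mcam (0.78 ± 0.18, adjusted p = 0.155). The leukocyte marker Cd68 read highest on control B and miR-200 A (8.87 and 8.98, against 5.73 to 6.81 on the others), and the part of these genes in the results below was not tested.

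One array of each group differed from its fellows, control B and miR-200 A. The deviations of these 2 arrays from their group means correlated at 0.71 without the dimmest 40% of probe sets. What sets them apart is not in the labels.

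Among the matrix genes, Sparc had the clearest difference. SPARC is a secreted, collagen-binding glycoprotein that regulates matrix assembly. Its brightest probe set read 11.68, 11.04 and 11.55 in control A, B and C and 9.68, 10.09 and 9.78 in miR-200 A, B and C. All 3 miR-200 cultures were lower than all 3 controls, and the gap between the groups exceeded the range within each. The means were 11.42 ± 0.34 and 9.85 ± 0.21 (SD, n = 3), a difference of -1.57 ± 0.22 (SE; 95% confidence interval -2.13 to -1.01), 2.96-fold lower, with a limma adjusted p = 0.0615. Each array averages a whole culture, so fewer cells with the transcript and less of it per cell cannot be told apart.

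The next Sparc probe set behaved alike, with 11.45, 10.61 and 11.40 in the controls and 9.43, 9.79 and 9.63 in the miR-200 cultures. It differed by -1.54 ± 0.27 (SE), with an interval of -2.21 to -0.86 and an adjusted p = 0.0949. The dimmest one did not show the gap: it read 7.81, 7.96 and 7.99 against 7.79, 8.06 and 7.77. Its difference was -0.048 ± 0.14 (interval -0.41 to 0.31), so the 3 probe sets disagree, and which part of the transcript each reads was not analysed here. The gap of the brightest set was similar inside and outside the arrays that stand apart, -1.35 from control B to miR-200 A and -1.67 between the means of the other cultures. The brightest set passed in 5 of 15 alternative settings of limma, and the next one passed in the same 5. These were a filter that drops the dimmest 40% (adjusted p = 0.0172 and 0.0313), a variance trend with robust estimation (adjusted p = 0.0109 and 0.0234), array weights (adjusted p = 0.0222 and 0.0252), and a term for the arrays that stand apart, alone or with that filter. Apart from array weights, these 5 settings leave the difference itself unchanged by construction. Over all 15 the difference of the brightest set ranged from -1.76 to -1.44, and its adjusted p from 0.00128 to 0.342. The lowest came from the term with the filter, a setting added after the data were seen. The term was read from the same values, so p-values with it are too small. The mean of all 3 Sparc probe sets differed by -1.05 (adjusted p = 0.0712).

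**Figure D2:**
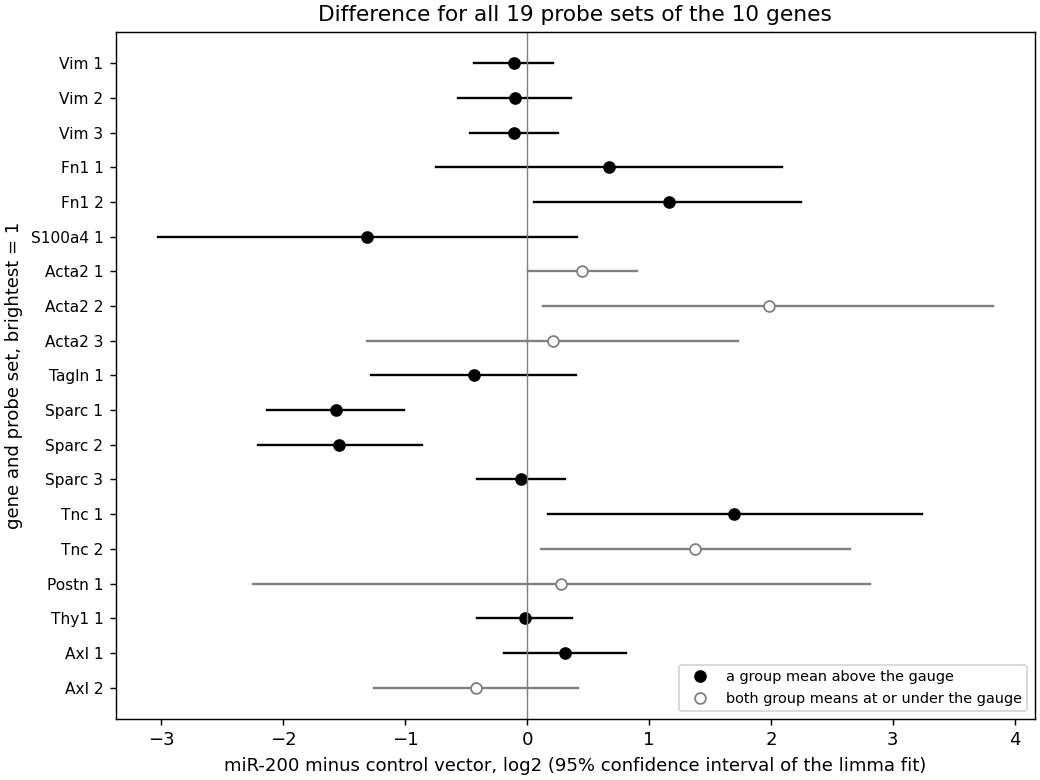
Difference in log2 signal, miR-200 minus control vector (x axis), with its 95% confidence interval from limma, for all 19 probe sets; within a gene, 1 is the brightest. The intervals of the brighter Sparc pair lie wholly below 0, from -2.21 to -0.86, those of Vim straddle 0 within 0.6 log2 units, and open grey symbols mark probe sets with both group means at or under the background gauge.

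Fn1 encodes fibronectin, the matrix glycoprotein that links collagens to integrins. Its brightest probe set read 10.59, 12.32 and 10.50 in control A, B and C, and 12.38, 11.43 and 11.60 in miR-200 A, B and C. Control B was level with the highest miR-200 culture, so the groups overlap. The difference was 0.67 ± 0.57 (SE; interval -0.75 to 2.09; adjusted p = 0.663), and it ran from 0.35 without control C to 1.26 without control B. Between the cultures that did not stand apart, the miR-200 mean was 0.97 above the control mean (11.52 against 10.54), while miR-200 A exceeded control B by 0.067. The dimmer probe set read 5.62, 6.45 and 4.88 against 7.15, 6.41 and 6.86, and differed by 1.16 ± 0.44 (adjusted p = 0.334). Neither probe set was lower on average in the miR-200 cultures. The interval of the brighter one, which reflects only the scatter among these cultures, reaches down to -0.75.

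Tnc encodes tenascin-C, a large matrix glycoprotein of wound edges and tumor stroma. Its brighter probe set read 5.92, 6.07 and 4.99 in the controls and 8.62, 6.63 and 6.84 in the miR-200 cultures. All 3 miR-200 cultures were higher than the controls, and miR-200 A stood well above the others. The means were 5.66 ± 0.58 and 7.36 ± 1.09 (SD, n = 3), a difference of 1.70 ± 0.62 (SE; interval 0.17 to 3.24; adjusted p = 0.312). Without miR-200 A the difference was 1.08. The control mean lay close to the background gauge, so the 3.25-fold ratio is uncertain. The dimmer Tnc probe set also had its groups apart (1.01, 1.99 and 3.04 against 3.52, 3.30 and 3.35), but under the gauge on all arrays.

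Postn, which encodes the matrix protein periostin, read 2.69, 0.96 and 1.96 in the controls and 3.03, 3.41 and 0 in the miR-200 cultures. All 6 values lie under the gauge, and the difference of 0.28 ± 1.02 (adjusted p = 0.936) has an interval from -2.25 to 2.81, so its single probe set gives no usable level here.

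Vim encodes vimentin, the intermediate filament protein most often used as a mesenchymal marker. Its brightest probe set read 13.82, 13.62 and 13.86 in the controls and 13.58, 13.69 and 13.70 in the miR-200 cultures. The groups overlap, and all 3 probe sets gave nearly the same difference, -0.11 ± 0.13, -0.10 ± 0.19 and -0.11 ± 0.14 (SE), with adjusted p of 0.753, 0.846 and 0.783. Their intervals reached from -0.57 at the lowest to 0.36 at the highest. The means of these probe sets lie at the 99.4 to 99.9 percentile of the array. Whether signals this bright are compressed was not tested.

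Tagln encodes transgelin, an actin-binding protein induced by TGF-beta and by the transcription factor SRF. Its single probe set read 7.20, 6.34 and 7.15 in control A, B and C and 6.01, 6.88 and 6.48 in miR-200 A, B and C. The lowest culture of each group was control B and miR-200 A, by 0.83 and 0.67 against the mean of the others in the group. The difference between groups was -0.44 ± 0.34 (SE; interval -1.28 to 0.40; adjusted p = 0.622), smaller than either deviation. It was -0.72 without control B and -0.22 without miR-200 A.

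Acta2, which encodes alpha smooth muscle actin, was at background by its brightest probe set, with 4.47, 4.85 and 4.29 against 4.95, 5.02 and 5.01. Another Acta2 probe set read 1.83, 4.26 and 3.55 in the controls and 4.29, 5.38 and 5.90 in the miR-200 cultures, where miR-200 B and C passed the gauge. Both had their groups apart, higher in the miR-200 cultures, with differences of 0.45 ± 0.18 (adjusted p = 0.346) and 1.98 ± 0.74 (adjusted p = 0.326), and no fold is given because the group means lie under the gauge. The remaining one differed by 0.21 ± 0.61 (adjusted p = 0.915).

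S100a4 encodes a calcium-binding protein, also called fibroblast-specific protein, that binds nonmuscle myosin. Its probe set read 12.49, 10.25 and 12.31 in control A, B and C and 9.66, 10.84 and 10.63 in miR-200 A, B and C. Control A and C were higher than every miR-200 culture, but control B lay below miR-200 B and C. The means were 11.69 ± 1.24 and 10.38 ± 0.63 (SD, n = 3), a difference of -1.31 ± 0.69 (SE; interval -3.03 to 0.41; adjusted p = 0.468). The difference was -2.03 without control B and -0.91 without control A. Between the cultures that did not stand apart it was -1.67, and from control B to miR-200 A it was -0.60.

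**Figure D3:**
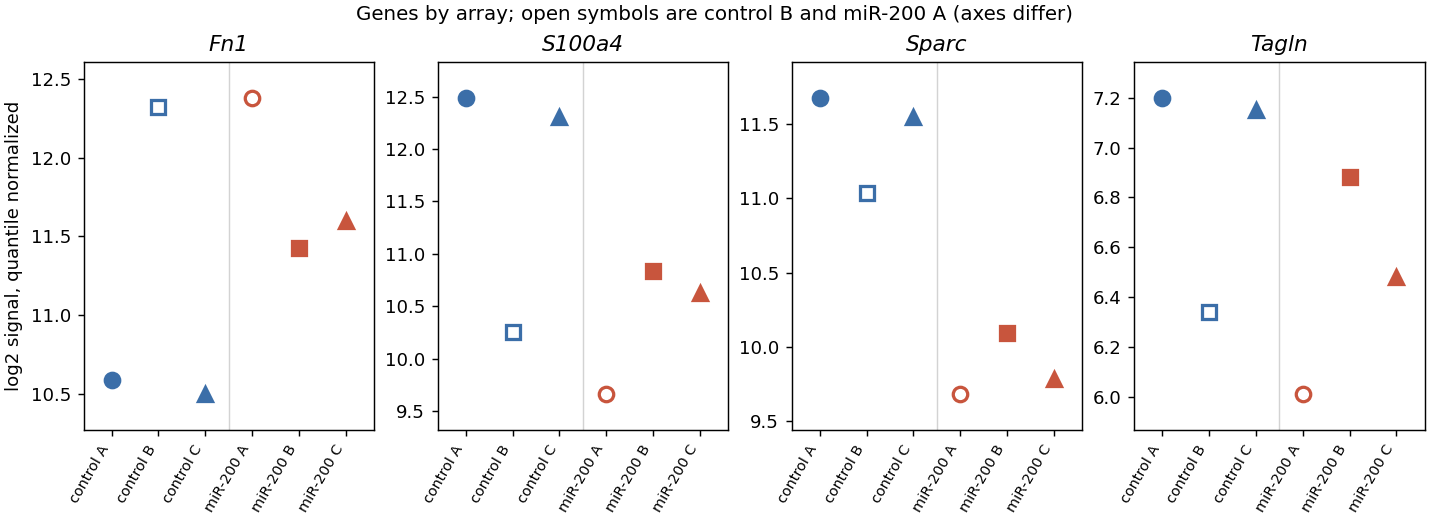
Log2 signal of Fn1, S100a4, Sparc and Tagln (brightest probe set; y axes differ) on the 6 arrays, with open symbols for control B and miR-200 A. For Fn1 these 2 arrays have the highest values of the 6 (12.32 and 12.38), for Tagln the lowest (6.34 and 6.01), and for Sparc all miR-200 values lie below all control values.

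Of the surface proteins, Axl encodes a receptor tyrosine kinase of the TAM family that is activated by the ligand GAS6. Its brighter probe set read 11.02, 11.11 and 10.84 in the controls and 10.99, 11.29 and 11.62 in the miR-200 cultures. The groups overlap and the difference was 0.31 ± 0.20 (SE; interval -0.19 to 0.81; adjusted p = 0.556). It ran from 0.15 without miR-200 C to 0.46 without miR-200 A. The other Axl probe set was above the gauge on 1 array and differed by -0.42 ± 0.34 (adjusted p = 0.641). Thy1, which encodes a surface glycoprotein of fibroblasts and T cells, read 5.40, 5.04 and 5.47 against 5.31, 5.28 and 5.27, around the gauge in both groups, with a difference of -0.018 ± 0.16 (adjusted p = 0.977) whose sign changed with the values as deposited (0.050).

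The promoters of Sparc, S100a4 and Vim are shown because Sparc and S100a4 had the lowest differences of the 10 genes and Vim is the marker with a narrow interval around 0. They are the 250 bases before the annotated start, 5′ to 3′ on the gene's strand, from RefSeq (GRCm38.p6), with TATAAA in capitals.
Sparc (chr11:55420081-55420330, minus strand): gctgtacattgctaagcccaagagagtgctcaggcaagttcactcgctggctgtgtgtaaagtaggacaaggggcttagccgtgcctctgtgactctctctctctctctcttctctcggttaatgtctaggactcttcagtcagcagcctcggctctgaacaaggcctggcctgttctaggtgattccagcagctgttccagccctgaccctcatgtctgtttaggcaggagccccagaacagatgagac
S100a4 (chr3:90603520-90603769, plus strand): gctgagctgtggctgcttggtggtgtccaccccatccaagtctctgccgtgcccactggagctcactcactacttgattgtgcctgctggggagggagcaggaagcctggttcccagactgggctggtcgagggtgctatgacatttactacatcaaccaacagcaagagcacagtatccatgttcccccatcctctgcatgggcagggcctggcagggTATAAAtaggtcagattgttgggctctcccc
Vim (chr2:13574061-13574310, plus strand): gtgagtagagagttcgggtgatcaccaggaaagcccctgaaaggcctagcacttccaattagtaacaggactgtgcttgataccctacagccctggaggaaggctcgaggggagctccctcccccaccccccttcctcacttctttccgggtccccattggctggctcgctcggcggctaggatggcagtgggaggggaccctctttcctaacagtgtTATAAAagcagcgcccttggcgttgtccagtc
Such windows matched 7 of the 10 genes, 9 windows in all, and Fn1, Tagln and Thy1 were not matched. The letters TATAAA, searched on both strands, begin 31 bases before the start in S100a4 and 32 in Vim, and are not in the Sparc window. They are in 5 of the 9 windows, from 4 genes because the pair of Tnc windows overlap and hold the same site, against 12.4% of all 32851 windows of this length. The Tnc site begins farther from the start, 126 or 205 bases before it, and the site of a Postn window 26. CACCTG, the core of the E-box that ZEB and SNAIL proteins bind, was also searched on both strands, with no overlap with TATAAA possible. It is in 0 of the 9 windows, against 17.2% of all. The CArG box, bound by SRF, was searched only in its strict form CCWWWWWWGG, where W is A or T. That form is in 0 of the 9 against 1.47% of all. Stretches that differ from it by a single base were not counted, and the Acta2 window holds such stretches (ccctatatgg and ccttgtttgg).

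Related genes outside the 10 were read from 7 lists of 87 genes, of which 84 were measured. Over these, 0 were higher and 1 was lower past the threshold, against 0.945% of all 18193 genes by their brightest probe set. With a limma p under 0.05 before adjustment there were 4 higher and 12 lower, against 14.8% of all genes in either direction, and the median difference was -0.0053.

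The gene past the threshold was Cdh2, which encodes N-cadherin, the cadherin of mesenchymal cells, in a list of 12 transition factors and cadherins with a median of -0.14. It fell from 9.86, 10.72 and 9.94 in the controls to 6.05, 6.31 and 6.46, a difference of -3.90 ± 0.28 (limma adjusted p = 0.00985), and its other probe set fell by 4.22 on the log2 scale (adjusted p = 0.0113). All 3 miR-200 cultures lay far below the controls. The direction held in all leave-one-out fits, as it had to with groups so far apart. The call was lost without control A (adjusted p = 0.0648), control C (adjusted p = 0.0591), miR-200 B (adjusted p = 0.0793) or miR-200 C (adjusted p = 0.0735). Zeb1 and Zeb2, outside the rule for named genes, had groups apart and lower in the miR-200 cultures, by -1.08 ± 0.34 (adjusted p = 0.255) and -0.85 ± 0.22 (adjusted p = 0.195).

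**Figure D4:**
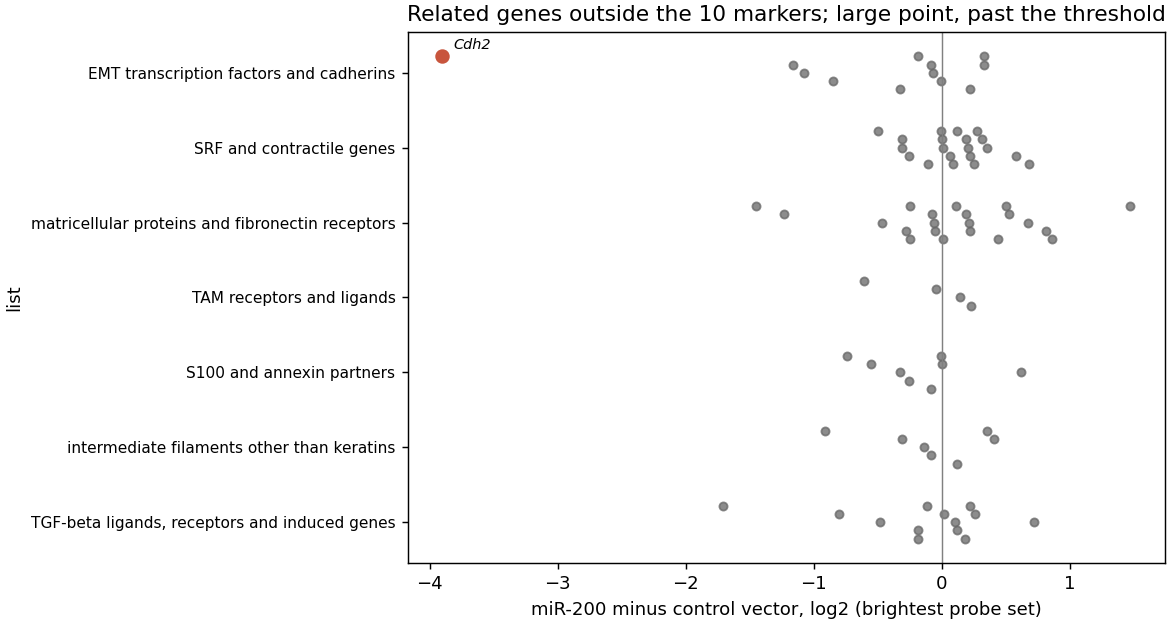
Difference in log2 signal, miR-200 minus control vector (x axis), for the brightest probe set of each measured gene in 7 lists of related genes (rows; vertical scatter within a row has no meaning). Cdh2, at -3.90, is the gene past the threshold, and the medians of the lists lie between -0.18 and 0.11.

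Among 20 contractile genes and SRF partners, which share regulation with Acta2 and Tagln, 0 passed (1 higher and 1 lower at an unadjusted p under 0.05 in limma; median 0.10). Cald1, which encodes the actin-binding protein caldesmon, read 11.54, 12.35 and 11.57 against 12.90, 12.27 and 12.34, with control B and miR-200 A the highest (difference 0.68 ± 0.30, adjusted p = 0.394). Of its other 4 probe sets, 3 differed by 0.74 to 1.05 and the dimmest by -0.39. Cnn2, which encodes a calponin, had its groups apart, 11.32, 11.11 and 11.35 against 11.59, 11.91 and 12.03 (difference 0.58 ± 0.17, adjusted p = 0.232).

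Among 21 matricellular proteins and fibronectin receptors measured, 0 passed (3 higher and 1 lower at an unadjusted p under 0.05 in limma; median 0.11). Itgb3, the integrin beta3 subunit of a fibronectin and vitronectin receptor, read 7.90, 7.13 and 7.40 against 6.29, 6.02 and 5.76 (difference -1.45 ± 0.26, adjusted p = 0.0966), and its other probe set was listed at 0 on all arrays. Thbs1, which encodes thrombospondin-1, read 8.14, 11.20 and 7.95 against 11.75, 9.61 and 10.35, following the same split of control B and miR-200 A as Fn1 (difference 1.47 ± 1.04, adjusted p = 0.594). Its difference was 2.52 without control B and 0.88 without miR-200 A. Itgb1, the common beta1 subunit, was chosen after its values were seen: it read 10.63, 10.85 and 10.73 against 11.68, 11.41 and 11.71 (difference 0.86 ± 0.15, adjusted p = 0.0896).

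Of the 4 TAM receptor and ligand genes 0 passed (0 higher and 1 lower at an unadjusted p under 0.05 in limma; median 0.048). Mertk, a receptor related to Axl, had its groups apart, 7.07, 7.25 and 7.01 against 6.51, 6.58 and 6.41 (difference -0.61 ± 0.13, adjusted p = 0.141). Gas6, their ligand, read 6.55, 7.47 and 6.52 against 8.74, 6.31 and 6.19, highest on control B and miR-200 A (difference 0.23 ± 0.76, adjusted p = 0.926).

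Of 8 S100 and annexin genes measured 0 passed (0 higher and 2 lower at an unadjusted p under 0.05 in limma; median -0.18). S100a13 read 12.47, 11.81 and 12.32 against 11.56, 11.44 and 11.37 (difference -0.74 ± 0.21, adjusted p = 0.220). S100a14, an epithelial member of the family, read 9.40, 9.97 and 9.33 against 10.82, 10.09 and 9.65 (difference 0.62 ± 0.35, adjusted p = 0.494), with control B and miR-200 A the highest of their groups, and differed by 0.31 without miR-200 A. Of 7 intermediate filament and associated genes 0 passed (0 higher and 1 lower in the same sense; median -0.084). Synm, which encodes synemin, a partner of vimentin filaments, read 6.62, 7.50 and 6.68 against 6.09, 6.17 and 5.80 (difference -0.91 ± 0.28, adjusted p = 0.251), and the glial filament gene Gfap differed by 0.41 ± 0.20 close to the gauge (adjusted p = 0.428).

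Of 13 TGF-beta genes measured 0 passed (0 higher and 2 lower at an unadjusted p under 0.05 in limma; median 0.020). Tgfb2, a TGF-beta ligand, read 7.87, 9.69 and 7.81 against 6.92, 6.70 and 6.62 (difference -1.71 ± 0.54, adjusted p = 0.259). Its other 3 probe sets differed by more, -3.36, -3.08 and -3.27, with adjusted p of 0.120, 0.137 and 0.115 and miR-200 means under the gauge. Control B was the highest of the 6 cultures on all 4, and without it the brightest differed by -1.09 (limma adjusted p = 0.106). Id1, a target of BMP and TGF-beta signals, read 12.39, 12.27 and 12.28 against 10.94, 11.83 and 11.76 (difference -0.80 ± 0.27, adjusted p = 0.282), or -0.51 without miR-200 A.

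Genes with the most similar pattern over the 6 arrays were looked up for the 5 markers that spanned at least 1 log2 unit and had a mean above the gauge, among 3578 genes meeting the same conditions. For Sparc they were Fabp1, a fatty acid binding protein gene (Pearson r = 0.999), Rab29 (r = 0.997) and Mtfp1 (r = 0.997), all 3 with groups apart and lower in the miR-200 cultures. There Fabp1 read 3.91, 4.48 and 4.10, under the gauge, and the Mtfp1 mean of 5.27 was also under it. For Fn1 they were Rdh10, a retinol dehydrogenase gene (r = 0.994), Frmd6 (r = 0.994) and Thbs1 (r = 0.993), for which control B and miR-200 A again read highest. For Tnc they were Irs1, an insulin receptor adaptor gene (r = 0.998), Zfp553 (r = 0.990) and Dcun1d4 (r = 0.989), all highest on miR-200 A. For S100a4 they were A130010J15Rik (r = 0.996), Ncoa7 (r = 0.993) and Cdk3 (r = 0.993), and for Tagln Tfb1m (r = 0.997), Pank1 (r = 0.996) and Derl2 (r = 0.992), each lowest on miR-200 A, with control B the lowest of the controls. These correlations describe 6 arrays of 2 groups with a shared split of 2 arrays, and no p is given.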

How the data were processed

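The authors deposited log2 signals, 1 per probe set and array. The arrays are Affymetrix mouse chips, per the labels, and for summarisation and normalization the sources used here name no method. Per the labels the chip is the 430A 2.0, whereas the table has the probe sets of the larger whole-genome array, and it was used as it stands. Array medians spanned 0.0924 and interquartile ranges 0.174, so arrays were quantile normalized (limma 3.58.1, R 4.3.3), and 64 control probe sets were then left out. Of 45037 probe sets, 34945 have 1 symbol in the platform annotation, 932 several, and 9160 are not listed. Symbols were updated by gene number through RefSeq (GRCm38.p6). A gene outside the 10 is represented by its brightest probe set.

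miR-200 was compared with control by lmFit and eBayes (two-sided, no covariate), adjusted by Benjamini-Hochberg over all probe sets. The fit was tested on simulated data with independent noise on each array. That simulation leaves out the shared deviation of control B and miR-200 A, so it says nothing on how the fit handles it. The number of arrays, 3 per group, limits the precision. The markers, lists and tests were chosen with earlier results of these data known. Named genes are all 10 markers and, of each related list, those past the threshold or else the 2 with the largest absolute difference. The genes most alike were the 3 with the highest Pearson r. Some listed genes were not analysed here. Alternatives were the values as deposited, median centring, a filter on the dimmest 40%, array weights, robust estimation together with a variance trend, a block for the replicate letter, a term for control B and miR-200 A, both left out, each array left out, and averaging the probe sets of a gene. The term with the filter was added after the data were seen, and p-values with the term, which was read from the same values, are too small, by how much is not known.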

Additional observations from a re-analysis of the deposited data

How the results depend on the processing

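Of 150 differences of the 10 markers under the alternatives, 135 kept their direction and side of the threshold, 7 passed it in the same direction (5 for Sparc, and 1 each for S100a4 and Tnc with the term and the filter), and 8 changed sign without a call. The filter, the variance trend, the replicate block and the term, alone or with the filter, leave each difference unchanged by construction. Its direction could not change in those settings, so keeping it there carries no information. Sign changes were Postn at -0.62 without control B and miR-200 A (-0.35 to 1.35 without 1 array), Thy1 at 0.050 as deposited (-0.15 to 0.065 without 1 array), and Axl at -0.055 by the mean of its probe sets. Of the related genes Gas6 did so, at -0.16 with array weights, -0.28 without control B and miR-200 A, and -0.60 to 0.68 without 1 array. In limma, 2 marker probe sets passed without the dimmest 40%, 2 with the variance trend and robust estimation (changed together, the trend setting from here), 2 with array weights and 2 with the term, in each case the brighter pair of Sparc, and 5 with the term and filter, 2 higher (Fn1 and Tnc) and 3 lower (2 of Sparc and S100a4). Related genes past the threshold numbered 3 with the filter, 3 with the trend, 3 with array weights, 2 with the term, 18 with the term and filter, and 0 to 1 without 1 array. Probe sets past it over the whole array numbered 923 with the filter, 951 with the trend, 1291 with array weights, 946 with the term, 4606 with term and filter, 103 without control B and miR-200 A, and, without 1 array, 32 (control A), 143 (control B), 57 (control C), 330 (miR-200 A), 40 (miR-200 B) and 54 (miR-200 C), against 335. With the replicate block in limma 0 passed in the whole array (4280 at an unadjusted p under 0.05), among the related genes and among the markers, and Cdh2 read -3.90 (adjusted p = 0.155). Arrays with the same letter had deviations correlated at -0.58, -0.67 and 0.43, so the letters were not taken as pairs. The cause of these changes was not tested, beyond the fewer probe sets or arrays that some settings use by construction. Signals under the gauge limit Acta2, Postn, Thy1 and the dimmer probe sets of Tnc and Axl.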
